A study of Mus musculus with 12 samples.

Results

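Toll-like receptors and the coreceptor CD14 were followed in cultured mouse bone marrow macrophages by the 10 genes Tlr1, Tlr2, Tlr3, Tlr4, Tlr6, Tlr7, Tlr8, Tlr9, Tlr13 and Cd14, taken by symbol from tables of 54532 genes, of which 27574 had at least 1 count. Each symbol matched 1 gene, and all 10 passed the filter on low counts in every comparison. The study asked how ITGA5, the alpha chain of the fibronectin receptor, shapes the macrophage transcriptome. Cells came from wild-type C57BL/6J mice aged 2 to 3 months, were differentiated with CSF-1, were replated on uncoated dishes or on dishes coated overnight with fibronectin, and then received 10 µg/ml of control IgG or of neutralizing anti-ITGA5 antibody for 24 h. Each antibody was thus measured on each coating, in 4 groups of 3 libraries, which are called here IgG or anti-ITGA5, without or with fibronectin. No Toll-like receptor ligand is named in the labels, and all groups had CSF-1 and an antibody. The labels number the libraries within a group, and the p-values measure the spread between these libraries.

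Toll-like receptors are membrane proteins that bind conserved microbial molecules and signal through adaptors such as MyD88 to NF-kB and interferon regulatory factors. TLR1, TLR2, TLR4 and TLR6 sit on the cell surface and TLR2 pairs with TLR1 or TLR6 to read lipopeptides, whereas TLR4 reads lipopolysaccharide with MD-2 and with CD14, which hands it the ligand. TLR3, TLR7, TLR8, TLR9 and TLR13 read nucleic acids in endosomes and reach them with the help of the chaperone UNC93B1. TLR13, which binds bacterial ribosomal RNA, is found in mice and not in humans.

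ITGA5 neutralization moved the members in both directions. Without fibronectin Tlr2 and Cd14 rose and Tlr6, Tlr8, Tlr9 and Tlr13 fell, and with fibronectin Tlr1, Tlr2 and Cd14 rose and Tlr8, Tlr9 and Tlr13 fell. Without fibronectin 2 members were called higher, beside 11.0% of the 12924 genes tested, and 4 were called lower, beside 9.79%. With fibronectin 3 were called higher, beside 14.4% of 12916 genes, and 3 lower, beside 13.2%. The counts over all genes changed when any library was left out. On uncoated dishes they ran from 846 to 1992 higher in place of 1419 and from 627 to 1842 lower in place of 1265. The lowest counts came without IgG replicate 1, where 1 member was called lower. Fold changes were modest: the called members lay between -0.71 and 0.46 on the log2 scale. A call here means an adjusted p of at most 0.05 in edgeR's quasi-likelihood test of the counts. Levels below are in FPKM, a count scaled to gene length and library size, with the SD over 3 libraries, and can be compared between genes.

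Tlr1 and Tlr6 are neighbours on chromosome 5, both on the minus strand, with 18467 bases and no other gene of the tables between them (GRCm38; Tlr1 at chr5:64924679-64933563, Tlr6 at chr5:64952031-64960097). They are also near-copies over part of their coding sequence: 900 of 910 aligned bases were identical in the longest shared block of 2 GENCODE transcripts, and the longest identical run was 229 bases. A 300-base coding stretch around that run is shown for both because reads from it bear on how the pair was counted. The capitals mark the 3 positions at which the stretches differ. Of all 150-base windows of each gene's transcripts, 4.30% in Tlr1 and 3.86% in Tlr6 occurred in the other gene, so that most of each gene could be told from its copy by a single read.
Tlr1, chr5:64925475-64925774, minus strand: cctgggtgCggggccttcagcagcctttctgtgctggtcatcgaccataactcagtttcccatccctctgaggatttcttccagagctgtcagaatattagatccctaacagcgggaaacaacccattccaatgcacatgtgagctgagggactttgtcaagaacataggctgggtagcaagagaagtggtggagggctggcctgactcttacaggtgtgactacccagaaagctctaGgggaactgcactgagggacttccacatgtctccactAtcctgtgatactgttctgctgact
Tlr6, chr5:64953766-64954065, minus strand: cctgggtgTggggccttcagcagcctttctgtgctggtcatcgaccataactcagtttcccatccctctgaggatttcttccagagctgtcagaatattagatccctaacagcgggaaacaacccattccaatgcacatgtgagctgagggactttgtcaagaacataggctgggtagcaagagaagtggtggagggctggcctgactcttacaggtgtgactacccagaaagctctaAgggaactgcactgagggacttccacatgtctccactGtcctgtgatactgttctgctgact

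The bases before the start of transcription are shown for the 4 members that were called in the same direction on both coatings and for which the RefSeq promoter table (GRCm38.p6) held an entry. Entries for 7 of the 10 members were found, not for Tlr4, Tlr7 and Cd14. Each sequence runs up to the start of the gene model in the deposited tables. Capitals mark matches on either strand to AGGAAG, the core of the site bound by the macrophage factor PU.1, to TGANTCA, the AP-1 site, and to the NF-kB consensus. The longer PU.1 motif GAGGAAGT, the interferon response motif and TATAAA were also searched.
Tlr2, chr3:83841768-83841858, minus strand: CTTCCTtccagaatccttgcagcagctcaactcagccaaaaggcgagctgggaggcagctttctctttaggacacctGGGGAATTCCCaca
Tlr8, chrX:167264330-167264579, minus strand: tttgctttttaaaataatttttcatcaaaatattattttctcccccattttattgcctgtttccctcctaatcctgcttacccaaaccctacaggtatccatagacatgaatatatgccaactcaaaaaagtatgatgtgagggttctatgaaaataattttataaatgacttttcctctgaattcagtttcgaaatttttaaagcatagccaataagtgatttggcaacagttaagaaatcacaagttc
Tlr9, chr9:106222348-106222597, plus strand: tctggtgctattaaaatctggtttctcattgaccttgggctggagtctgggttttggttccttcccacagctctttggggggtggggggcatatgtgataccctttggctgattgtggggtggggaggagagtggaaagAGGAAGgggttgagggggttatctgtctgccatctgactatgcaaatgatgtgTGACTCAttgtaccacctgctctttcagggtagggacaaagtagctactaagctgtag
Tlr13, chrX:106143025-106143203, plus strand: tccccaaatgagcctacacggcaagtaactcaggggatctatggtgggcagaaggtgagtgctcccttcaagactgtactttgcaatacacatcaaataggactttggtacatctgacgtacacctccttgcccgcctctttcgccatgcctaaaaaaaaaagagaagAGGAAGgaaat
Tlr2, which rose, held an NF-kB match, found as 2 overlapping placements, and an AGGAAG match on the strand opposite to the one shown, where it reads CTTCCT. Tlr9 and Tlr13, which fell, each held an AGGAAG match, and Tlr9 held an AP-1 match. The Tlr8 window held TATAAA, with overlapping matches on both strands that are left in lower case, and none of the other motifs. GAGGAAGT and the interferon response motif had no match in these 4 windows. Over the 250 bases before the start in all 32851 promoters of the table, AGGAAG occurred in 29.5%, TGANTCA in 6.75%, the NF-kB consensus in 3.90%, GAGGAAGT in 2.44%, the interferon response motif in 2.98% and TATAAA in 12.4%. The Tlr2 and Tlr13 windows shown are shorter, at 91 and 179 bases. Among the members with an entry that are not shown, Tlr3, which was not called, held an NF-kB match in its 250 bases. Tlr1 held AGGAAG within a GAGGAAGT match. Tlr6 held AGGAAG, interferon response and TATAAA matches. All these matches describe letters only.

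The libraries held 12954342 to 22075432 counts on genes, and the members together took 15547 to 26158 of them. Replicates were farthest apart under anti-ITGA5 on uncoated dishes, where a pair had a chi-square per gene of 10.4 to 23.0, against 2.65 to 7.45 in the other groups. Sampling of reads on its own would put this value near 1. In anti-ITGA5 with fibronectin, replicate 3 stood apart in Irf7, a master factor of interferon induction, which was at 3.15, 2.53 and 15.6 FPKM in replicates 1, 2 and 3, a gene singled out after its values were seen. Values of the members and of named genes of their pathway that this library moved are given below with and without it. Cell type markers are given with all libraries only. Itga5 itself was measured at 44.5 to 53.1 FPKM in all libraries. The antibody acts on the protein, so this level does not check the labels.

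Macrophage markers were abundant in every library, with a summed level of 6074 to 9828 FPKM. The sum of these 8 markers was 8979 to 9828 FPKM in IgG and 6074 to 7478 FPKM in anti-ITGA5 without fibronectin, and 9555 to 9770 and 7327 to 7465 FPKM with fibronectin. Lyz2 made up most of it, with a mean of 7514 FPKM in IgG and 5256 FPKM in anti-ITGA5 without fibronectin. Lyz2, Cd68, Itgam and Mertk fell on both coatings and Spi1, which encodes PU.1, fell with fibronectin. Csf1r, Adgre1 and Fcgr1 were not called on either coating, and Adgre1 averaged 169 and 170 FPKM without and 167 and 180 FPKM with fibronectin in IgG and anti-ITGA5. Many markers of other cells that carry Toll-like receptors were near 0, and some were not. Siglech, Ccr9, Ly6d and Klk1 of plasmacytoid dendritic cells stayed under 10 counts in each library, as did Ms4a1 and Pax5 of B cells, Ly6g, Cxcr2 and Ngp of neutrophils, and Flt3, Xcr1, Clec9a and Cd209a of conventional dendritic cells. The 7 plasmacytoid dendritic cell markers summed to 302 to 326 FPKM in IgG and 193 to 259 FPKM in anti-ITGA5 without fibronectin, and to 315 to 343 and 232 to 333 FPKM with it. The 8 neutrophil markers summed to 8.49 to 10.2 and 6.23 to 7.53 FPKM without and 8.81 to 10.1 and 5.71 to 7.57 FPKM with fibronectin. The plasmacytoid sum came mostly from Bst2, which macrophages also express. Bst2 averaged 298 FPKM in IgG and 214 FPKM in anti-ITGA5 without fibronectin, where it fell (log2 -0.47 ± 0.0845). With fibronectin it averaged 312 and 256 FPKM. Cox6a2 and Tcf4 of that list were also detected, at 13.5 and 11.1 and at 3.02 and 2.71 FPKM without fibronectin. With it they were at 13.7 and 12.1 and at 2.93 and 2.51 FPKM. Csf3r of the neutrophil list, which macrophages also express, fell on both coatings (-0.64 ± 0.0786 and -0.41 ± 0.0966). The 6 conventional dendritic cell markers summed to 1.04 to 1.49 FPKM in IgG and 1.75 to 2.91 FPKM in anti-ITGA5 without fibronectin, and to 1.75 to 1.99 and 2.09 to 2.80 FPKM with it, mostly from Itgax, which rose (log2 0.94 ± 0.219 and 0.44 ± 0.133). Cd79b, a B cell receptor subunit, averaged 3.54 FPKM in IgG and 2.33 FPKM in anti-ITGA5 without fibronectin, and 3.58 and 2.16 FPKM with it, where it fell (log2 fold change -0.72 ± 0.184, adjusted p = 0.0118 in edgeR). The part of these marker shifts in the results below was not tested. In bulk RNA, fewer cells of a type and less RNA per cell cannot be told apart.

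Among the receptors Tlr13 was by far the most abundant, with 57.4% ± 0.593 of the summed receptor FPKM in IgG without fibronectin. The order in both IgG groups was Tlr13, Cd14, Tlr7, Tlr8, Tlr4, Tlr2, Tlr6, Tlr1, Tlr3 and Tlr9, and no neighbours in that order overlapped. In anti-ITGA5 without fibronectin Cd14 (142 ± 4.28 FPKM) stood above Tlr13 (127 ± 6.65 FPKM) and Tlr1 above Tlr6, again with no overlap. In anti-ITGA5 with fibronectin the ranges of Tlr13 and Cd14, of Tlr8 and Tlr4, and of Tlr1 and Tlr6 overlapped, although Tlr1 was above Tlr6 within each library. Of the other receptor genes, Tlr5 (flagellin) was detected at 18 to 46 counts and was not called in any comparison. Tlr11 and Tlr12 had at most 4 and 1 counts and were not tested.

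**Figure D1:**
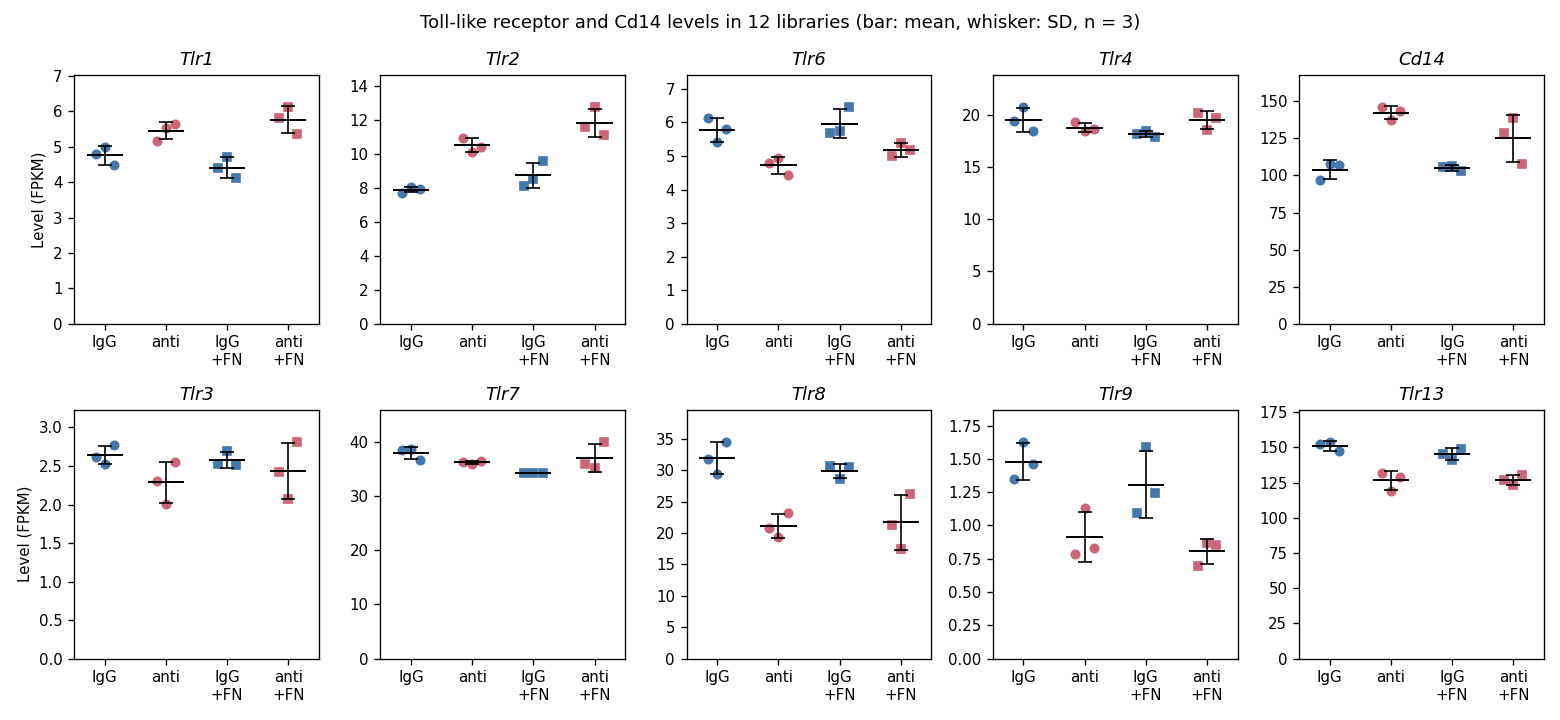
Level in FPKM (y axis, from 0) of the 10 genes in the 4 groups (x axis, +FN is with fibronectin), with 1 point per library, the mean as a bar and the SD as a whisker. Tlr2, Tlr1 and Cd14 sit higher and Tlr8, Tlr9 and Tlr13 lower in both anti-ITGA5 groups than in the IgG group of the same coating, with no overlap.

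Tlr2 encodes the shared subunit of the lipopeptide receptors. It was at 7.70, 8.01 and 7.93 FPKM in IgG and 10.9, 10.1 and 10.4 FPKM in anti-ITGA5 without fibronectin. With fibronectin the values were 8.11, 8.49 and 9.55 in IgG and 11.6, 12.7 and 11.1 in anti-ITGA5. Every anti-ITGA5 library lay above every IgG library, also across coatings. Tlr2 rose by 0.42 ± 0.0657 (log2 fold change ± SE, adjusted p = 0.00137 in edgeR) without and by 0.44 ± 0.0811 (adjusted p = 0.00168) with fibronectin, and both calls stood when any library was left out.

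Tlr1, the partner of TLR2 for triacylated lipopeptides, was at 4.79, 5.002 and 4.48 FPKM in IgG and 5.18, 5.53 and 5.65 FPKM in anti-ITGA5 without fibronectin. With fibronectin it was at 4.40, 4.71 and 4.11 in IgG and 5.82, 6.12 and 5.37 in anti-ITGA5. The groups did not overlap on either coating. The fold change was called with fibronectin (log2 fold change 0.39 ± 0.0874, adjusted p = 0.00573 in edgeR) and not without it (0.20 ± 0.0845, adjusted p = 0.12). The interaction, which tests whether the antibody effect differed between coatings, was 0.18 ± 0.116 with an adjusted p of 1.00.

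Tlr6, the partner of TLR2 for diacylated lipopeptides, went the other way. It was at 6.13, 5.42 and 5.80 FPKM in IgG and 4.80, 4.93 and 4.43 FPKM in anti-ITGA5 without fibronectin, and at 5.70, 5.73 and 6.45 against 4.99, 5.39 and 5.18 with fibronectin. Again the groups did not overlap. Tlr6 fell by 0.29 ± 0.0847 on the log2 scale without fibronectin (adjusted p = 0.0337 in edgeR). With fibronectin the value was -0.20 ± 0.0806 and was not called (adjusted p = 0.0812). The call without fibronectin was lost with DESeq2 (adjusted p = 0.0797), total-count scaling (0.0671) and limma without a filter (0.1003), and when IgG replicate 1 (0.139) or 3 (0.095) or anti-ITGA5 replicate 1 (0.0844) or 3 (0.112) was left out.

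A ratio of 2 genes within a library does not depend on how libraries are scaled to each other. Tlr1 stood below Tlr6 in all 6 IgG libraries and above it in all 6 anti-ITGA5 libraries. The ratio of Tlr1 to Tlr6 was 0.826 ± 0.0847 in IgG and 1.16 ± 0.103 in anti-ITGA5 without fibronectin, and 0.743 ± 0.0956 and 1.11 ± 0.0674 with it. Tlr2 to Tlr6 went from 1.37 ± 0.112 to 2.23 ± 0.155 without and from 1.46 ± 0.0333 to 2.27 ± 0.118 with fibronectin. Neither ratio overlapped between antibodies, and the 2-sided exact permutation p was 0.1 in each case, which is the smallest that 3 against 3 libraries allow (0.109 after Benjamini-Hochberg adjustment over 12 tests).

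**Figure D2:**
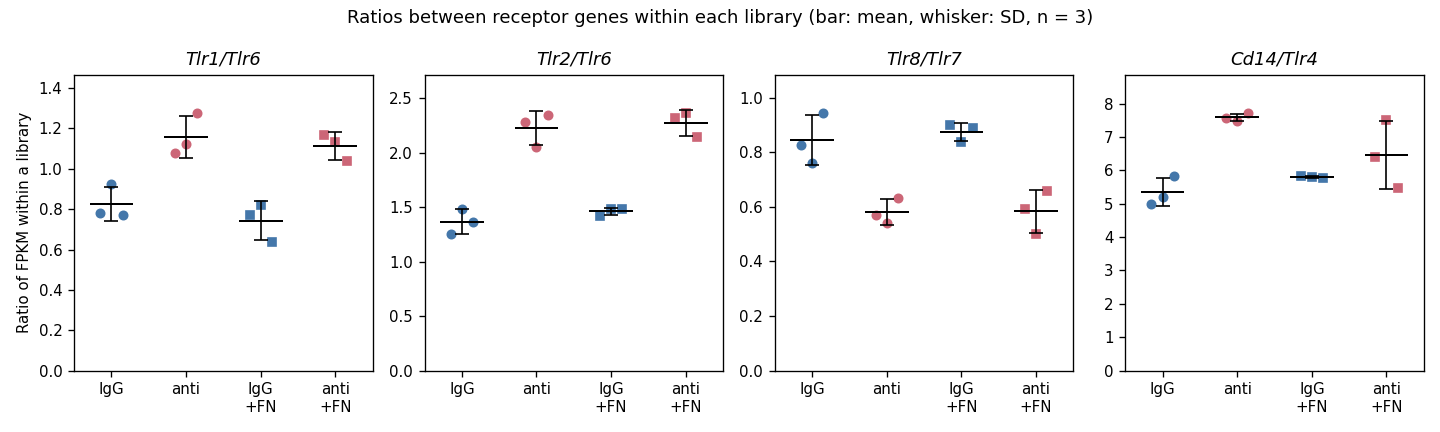
Ratio of the FPKM of a gene pair within each library (y axis, from 0) for 4 pairs in the 4 groups (x axis, +FN is with fibronectin), with 1 point per library, the mean as a bar and the SD as a whisker. The ratios of Tlr1 and of Tlr2 to Tlr6 are higher and that of Tlr8 to Tlr7 lower in every anti-ITGA5 library than in every IgG library, whereas Cd14 to Tlr4 overlaps with fibronectin.

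Tlr4, the lipopolysaccharide receptor, was at 18.4 to 20.7 FPKM in IgG and 18.4 to 19.3 FPKM in anti-ITGA5 without fibronectin, and its log2 fold change was -0.05 ± 0.0567, with an approximate 95% interval of -0.16 to 0.06. With fibronectin it was at 17.8 to 18.4 and 18.5 to 20.2 FPKM. The log2 fold change there was 0.10 ± 0.0465 (approximate interval 0.01 to 0.19, unadjusted p = 0.0514, adjusted p = 0.132 in edgeR). Neither was called. Scaled by total counts in place of TMM, the value with fibronectin was called at 0.14 (adjusted p = 0.0385), as was Tlr7 at 0.15 (0.0445). That scaling gave 1838 genes higher and 940 lower where TMM gave 1419 and 1265 without fibronectin, and 2407 and 1264 where TMM gave 1866 and 1699 with it.

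Cd14 encodes the coreceptor that delivers lipopolysaccharide to TLR4 and also serves TLR2. Without fibronectin it was at 96.8, 108 and 107 FPKM in IgG and 146, 138 and 143 FPKM in anti-ITGA5. With fibronectin it was at 106, 107 and 103 FPKM in IgG and 129, 139 and 108 FPKM in anti-ITGA5. The lowest anti-ITGA5 value, just above the IgG range, was replicate 3 with fibronectin, the library with high Irf7. Cd14 rose by 0.46 ± 0.0563 without fibronectin (adjusted p = 0.000298 in edgeR) and by 0.25 ± 0.0714 with it (adjusted p = 0.0203). Without that library the second value was 0.35 ± 0.0463 (adjusted p = 2.13e-05). The call with fibronectin was lost when IgG replicate 1 (adjusted p = 0.0656) or 3 (0.0711) or anti-ITGA5 replicate 1 (0.0831) or 2 (0.08) was left out, and with limma on log2(FPKM + 1) (0.088), on log2(FPKM + 0.1) (0.0874) and without a filter (0.211). The ratio of Cd14 to Tlr4 rose from 5.35 ± 0.432 to 7.59 ± 0.111 without overlap on uncoated dishes and was 5.80 ± 0.0235 and 6.45 ± 1.02 with overlap on fibronectin (exact permutation p = 0.4). The overlap came from replicate 3 of anti-ITGA5, at 5.47, whereas replicates 1 and 2, at 6.39 and 7.50, lay above the IgG libraries, at 5.78 to 5.82.

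**Figure D3:**
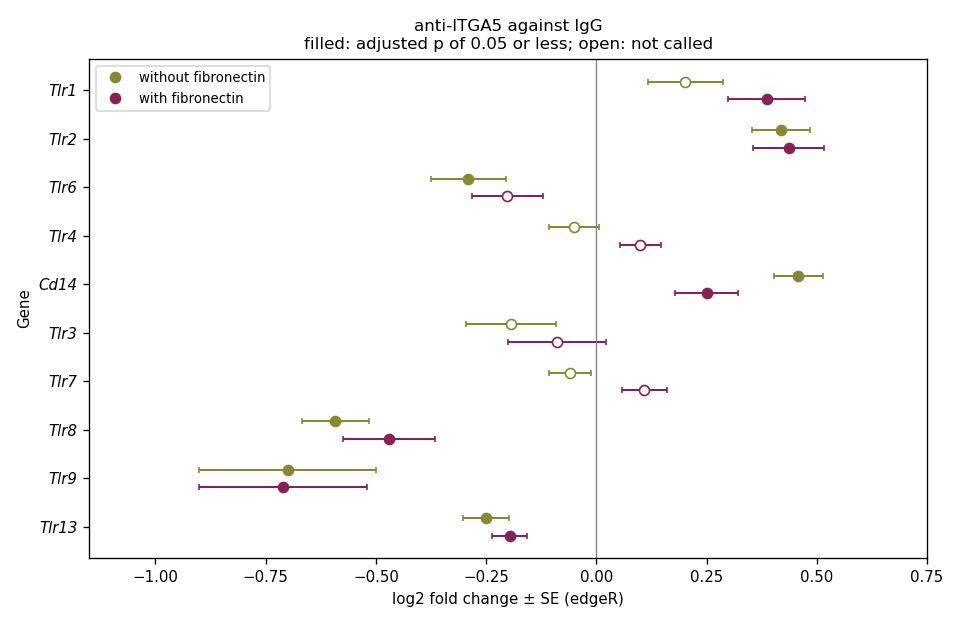
Log2 fold change of anti-ITGA5 against IgG (x axis, edgeR) with its SE for the 10 genes (y axis) without and with fibronectin, filled where the adjusted p was 0.05 or less. Tlr2 and Cd14 lie to the right and Tlr8, Tlr9 and Tlr13 to the left of 0 on both coatings, filled in each case.

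Tlr8 showed the largest fall of the well-detected members. It was at 31.9, 29.5 and 34.5 FPKM in IgG and 20.8, 19.4 and 23.1 FPKM in anti-ITGA5 without fibronectin, and at 30.7, 28.7 and 30.5 against 21.3, 17.5 and 26.3 FPKM with it. All anti-ITGA5 libraries lay below all IgG libraries, with the highest of them again replicate 3 with fibronectin. Tlr8 fell by 0.59 ± 0.0754 without (adjusted p = 0.000379 in edgeR) and by 0.47 ± 0.104 with fibronectin (adjusted p = 0.00508). Without that library the second value was -0.63 ± 0.0684 (adjusted p = 2.26e-06). With limma on all genes without a filter the call with fibronectin was lost (adjusted p = 0.118).

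Tlr7 reads single-stranded RNA, as TLR8 does in humans, and lies next to Tlr8 on chromosome X (chrX:167304929-167330558 and chrX:167242696-167264329, both on the minus strand) with 40599 bases and no other gene of the tables between. Tlr7 was at 38.5, 38.7 and 36.6 FPKM in IgG and 36.4, 35.9 and 36.5 FPKM in anti-ITGA5 without fibronectin, and at 34.2, 34.2 and 34.3 against 35.9, 35.2 and 40.0 FPKM with it. The groups did not overlap on either coating but lay in opposite orders, lower under the antibody without fibronectin and higher with it. Neither fold change was called (log2 -0.06 ± 0.0478 and 0.11 ± 0.051, with approximate intervals of -0.15 to 0.03 and 0.01 to 0.21). In edgeR the unadjusted p was 0.241 and 0.0526 and the adjusted p 0.426 and 0.134. The interaction was 0.17 ± 0.0698 with an unadjusted p of 0.0309 and an adjusted p of 1.00 in edgeR. Without anti-ITGA5 replicate 3 the value with fibronectin was 0.05 ± 0.0445 (adjusted p = 0.416) and the interaction 0.12 ± 0.0626. The ratio of Tlr8 to Tlr7 fell from 0.844 ± 0.0918 to 0.581 ± 0.0482 without and from 0.875 ± 0.0324 to 0.583 ± 0.0795 with fibronectin, with no overlap (exact permutation p = 0.1, the smallest possible).

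Tlr13 fell by a smaller factor from a much higher level. It was at 152, 154 and 147 FPKM in IgG and 131, 119 and 129 FPKM in anti-ITGA5 without fibronectin, and at 146, 141 and 149 against 127, 123 and 130 FPKM with it. The groups did not overlap. The log2 fold change was -0.25 ± 0.0526 without (adjusted p = 0.0073 in edgeR) and -0.20 ± 0.0397 with fibronectin (adjusted p = 0.00292). Without IgG replicate 1 the first had an adjusted p of 0.054, and with limma without a filter 0.0538.

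Tlr9, the receptor for unmethylated CpG DNA, was the scarcest member, at 47 to 120 counts in a library. It was at 1.35, 1.63 and 1.46 FPKM in IgG and 0.787, 1.13 and 0.827 FPKM in anti-ITGA5 without fibronectin, and at 1.09, 1.58 and 1.24 against 0.696, 0.865 and 0.852 FPKM with it. Here too the antibody groups were below and apart from their controls. Tlr9 fell by 0.70 ± 0.2 without (adjusted p = 0.0312 in edgeR) and by 0.71 ± 0.191 with fibronectin (adjusted p = 0.0152). At these counts the calls depended on single libraries and on the tool, since limma on log2(FPKM + 1) gave adjusted p of 0.066 and 0.056, on log2(FPKM + 0.1) 0.0595 and 0.0537, and without a filter 0.179 and 0.143. The adjusted p rose to 0.0715, 0.125 and 0.0933 without IgG replicate 1, 2 or 3 and to 0.108 and 0.0768 without anti-ITGA5 replicate 1 or 3 on uncoated dishes, and to 0.0797 without IgG replicate 2 and 0.0694 without anti-ITGA5 replicate 1 on fibronectin.

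Tlr3, the receptor for double-stranded RNA, was at 2.53 to 2.77 FPKM in IgG and 2.01 to 2.55 FPKM in anti-ITGA5 without fibronectin, and at 2.52 to 2.69 and 2.07 to 2.81 FPKM with it. It was the only member whose groups overlapped on both coatings. It was not called (log2 -0.19 ± 0.102 and -0.09 ± 0.111, adjusted p = 0.211 and 0.597 in edgeR), and with fibronectin it was -0.20 (adjusted p = 0.191) without anti-ITGA5 replicate 3. Tlr3 overlaps the antisense gene Gm45542, which had 0 counts in all libraries. Across the members, 8 of 10 did not overlap between IgG and anti-ITGA5 without fibronectin, beside 38.2% of genes tested, and 9 of 10 with fibronectin, beside 42.4%.

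Genes that fold, carry and mature the receptors moved in both directions. Of 15 accessory proteins and chaperones tested, 3 rose and 5 fell without fibronectin and 3 rose and 6 fell with it. Over all genes tested, 11.0% rose and 9.79% fell without and 14.4% rose and 13.2% fell with fibronectin, which is the background for this and the following lists. Unc93b1, which escorts the endosomal receptors, fell from 133 to 137 FPKM in IgG to 103 to 116 FPKM in anti-ITGA5 without fibronectin (log2 -0.29 ± 0.0536, adjusted p = 0.00366 in edgeR) and by 0.26 ± 0.0369 with it. Slc15a4, an endolysosomal histidine and peptide transporter needed for TLR7 and TLR9 signals, fell by 0.75 ± 0.0709 and 0.75 ± 0.0541. Ctss and Ctsl, lysosomal proteases that cut endosomal receptors into their active form, fell by 0.48 ± 0.0698 and 0.46 ± 0.078 without and by 0.49 ± 0.0481 and 0.39 ± 0.0532 with fibronectin. Lgmn, another such protease, and the chaperones Cnpy3 and Cnpy4 were not called without fibronectin (-0.05, 0.14 and 0.02). Cd180, which encodes a relative of the receptors, rose by 0.32 on each coating, and Slc15a3 and Hsp90b1, the receptor chaperone gp96, rose too. Ly96, which encodes MD-2, was not called (-0.19 ± 0.122 and -0.07 ± 0.124). The medians of the list were -0.05 and -0.07, beside 0.01 and 0.00 over all genes tested.

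None of the 5 adaptor genes tested was called on either coating by edgeR, although 2 without fibronectin (Ticam1 and Pik3ap1) and 1 with it (Pik3ap1) had an unadjusted p under 0.05. By DESeq2 the count was also 0, and without anti-ITGA5 replicate 3 it was 1 with fibronectin. Myd88, the adaptor that most of these receptors share, was at -0.10 ± 0.0763 and 0.07 ± 0.0581 on the log2 scale. Of 17 kinases and ubiquitin ligases, 5 fell on each coating, namely Irak1, Irak2, Traf6, Peli2 and Ikbkg, beside 9.79% and 13.2% of all genes. Ikbkg, the NEMO subunit of the IKK complex, fell by 0.42 ± 0.047 and 0.45 ± 0.0453, Irak2 by 0.45 ± 0.0568 and 0.31 ± 0.0522, and Peli2, which encodes a ubiquitin ligase, by 0.49 ± 0.086 and 0.38 ± 0.0732. Traf3 was called higher without fibronectin (adjusted p = 0.0489) and Tab1 with it (0.0423). The number called higher fell from 1 to 0 when any library was left out without fibronectin, and when IgG replicate 1 or 3 or anti-ITGA5 replicate 1 or 2 was left out with it.

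Of the 7 transcription factors, Irf5 and Irf8 fell on both coatings, by 0.28 ± 0.0632 and 0.34 ± 0.0608 without and by 0.30 ± 0.0474 and 0.30 ± 0.0572 with fibronectin. Both factors act in macrophage inflammatory gene induction. Without IgG replicate 1 or 3 the adjusted p of Irf5 without fibronectin was 0.0614 and 0.0657. Irf3, which drives interferon beta, was called higher on both coatings (0.26 ± 0.0656 and 0.25 ± 0.0705), and Rel with fibronectin. The number called higher fell from 1 to 0 without IgG replicate 1 or 2 or anti-ITGA5 replicate 3 on uncoated dishes, and from 2 to 0 without IgG replicate 2 or 3 or anti-ITGA5 replicate 2 on fibronectin. Irf7 fell by 1.67 ± 0.125 without fibronectin (adjusted p = 1.50e-05 in edgeR). With fibronectin its value was -0.35 ± 0.477 and not called, and -1.64 ± 0.134 (adjusted p = 7.66e-08) without anti-ITGA5 replicate 3. With all libraries and all genes with at least 1 count tested it was called (-0.35 ± 0.0813, adjusted p = 0.000212). The same library decided the cytosolic nucleic acid and peptidoglycan sensors, of which 4 of 9 fell without fibronectin (Ddx58, Ifih1, Dhx58 and Zbp1) and 0 with it, but 5 of 9 with it when that library was left out. With fibronectin Ifih1 was at -0.10 ± 0.137 and Dhx58 at 0.00064 ± 0.185 with all libraries, and at -0.34 ± 0.0681 (adjusted p = 0.00103) and -0.34 ± 0.0851 (adjusted p = 0.00537) without anti-ITGA5 replicate 3. By DESeq2 the count with all libraries was also 0, and by edgeR 1 of the 9, Nod1, had an unadjusted p under 0.05. Zbp1, a sensor of Z-form nucleic acid, was at 1.57 to 1.65 FPKM in IgG and 0.412 to 0.815 FPKM in anti-ITGA5 without fibronectin, and at 1.07, 0.487 and 3.14 FPKM in anti-ITGA5 with it (log2 -0.23 ± 0.453, or -1.19 ± 0.283 without replicate 3). The count without fibronectin was 2 when IgG replicate 2 or 3 or anti-ITGA5 replicate 1 was left out, and 1 when all 12 libraries were fitted together or with limma without a filter.

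Among genes that lipopolysaccharide induces in macrophages, the chemokine genes Ccl3 and Ccl4 rose. Ccl4 was at 132 to 151 FPKM in IgG and 205 to 233 FPKM in anti-ITGA5 without fibronectin and rose by 0.61 ± 0.0665 and by 0.64 ± 0.0747 with it. Ccl3 rose by 0.43 ± 0.0928 and 0.54 ± 0.0734, with an adjusted p of 0.0518 on uncoated dishes when IgG replicate 1 was left out. Ccl5, an interferon-linked chemokine, fell by 2.80 ± 0.475 without fibronectin from 26 to 63 counts to 3 to 7 counts, and with fibronectin was at 7, 4 and 60 counts under anti-ITGA5 against 19 to 25 under IgG (log2 0.25 ± 0.715). Without anti-ITGA5 replicate 3 that value was -1.94 ± 0.467 (adjusted p = 0.00437). In all, 2 of 9 tested genes of this list rose and 1 fell without fibronectin, and 3 of 8 rose and 1 fell with it, with medians of 0.19 and 0.28. Of 10 negative regulators, Tnfaip3, the A20 deubiquitinase, fell on both coatings (-0.28 ± 0.0801 and -0.37 ± 0.0571), with adjusted p of 0.0552, 0.0788, 0.139 and 0.126 on uncoated dishes when IgG replicate 1, 2 or 3 or anti-ITGA5 replicate 1 was left out, and of 0.0695 with total-count scaling and 0.0673 to 0.162 with limma. Dusp1, a MAP kinase phosphatase, fell with fibronectin (-0.39 ± 0.0723) and was at 0.08 ± 0.0845 without it, and Tollip rose with fibronectin (0.15 ± 0.045), with adjusted p of 0.0575 to 0.127 when IgG replicate 1 or 3 or anti-ITGA5 replicate 1 or 2 was left out.

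**Figure D4:**
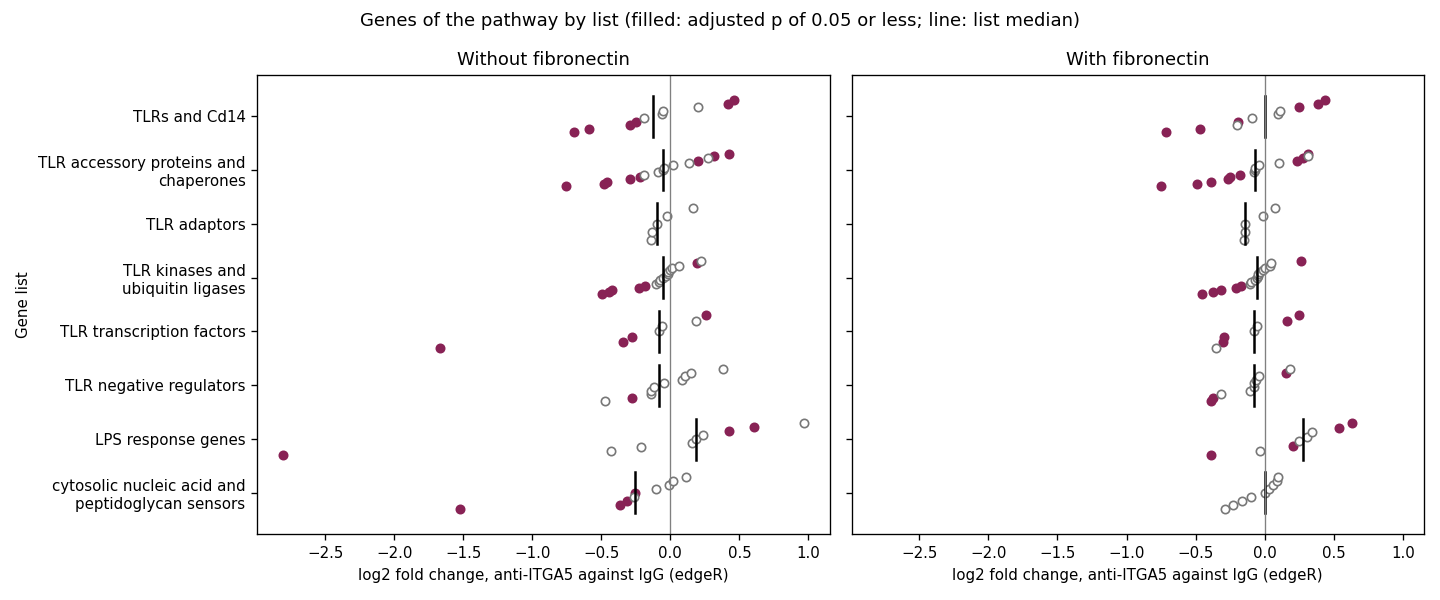
Log2 fold change of anti-ITGA5 against IgG (x axis, edgeR) of each tested gene in 8 lists (y axis) without (left) and with fibronectin (right), filled where the adjusted p was 0.05 or less, with the list median as a line. The accessory list spreads to both sides, no adaptor is filled, and 5 kinases and ubiquitin ligases are filled on the left of 0 on each coating.

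Fibronectin coating by itself called no member in fits that did not pair libraries by number. A fit that did is given in the last section. These comparisons share their libraries with the antibody comparisons above. In IgG 0 of 10 were called by edgeR or by DESeq2, beside 0.449% of 12925 genes, with Tlr4 and Tlr7 at an unadjusted p under 0.05. Tlr7 came closest, at 38.5, 38.7 and 36.6 FPKM without and 34.2, 34.2 and 34.3 FPKM with fibronectin (log2 -0.15 ± 0.0385, unadjusted p = 0.0011, adjusted p = 0.108 in edgeR). In anti-ITGA5 0 of 10 were called by either tool, beside 0% of 12863 genes, of which 461 had an unadjusted p under 0.05. Cd14 was the member with an unadjusted p under 0.05, at -0.20 ± 0.081, and at -0.11 ± 0.0633 without replicate 3 with fibronectin. The approximate intervals of the coating effect on Tlr2 ran from -0.01 to 0.29 in IgG and from 0.01 to 0.29 in anti-ITGA5. The unadjusted p was 0.0904 and 0.0562 in edgeR, so neither was under 0.05. The interaction called 0 of 10 members with either tool, beside 0.0223% of 13455 genes. It ranged from -0.21 ± 0.0995 for Cd14 to 0.18 ± 0.116 for Tlr1, and Tlr7 alone had an unadjusted p under 0.05. Differences between coatings in which members were called are therefore not shown by a test of the difference.

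**Figure D5:**
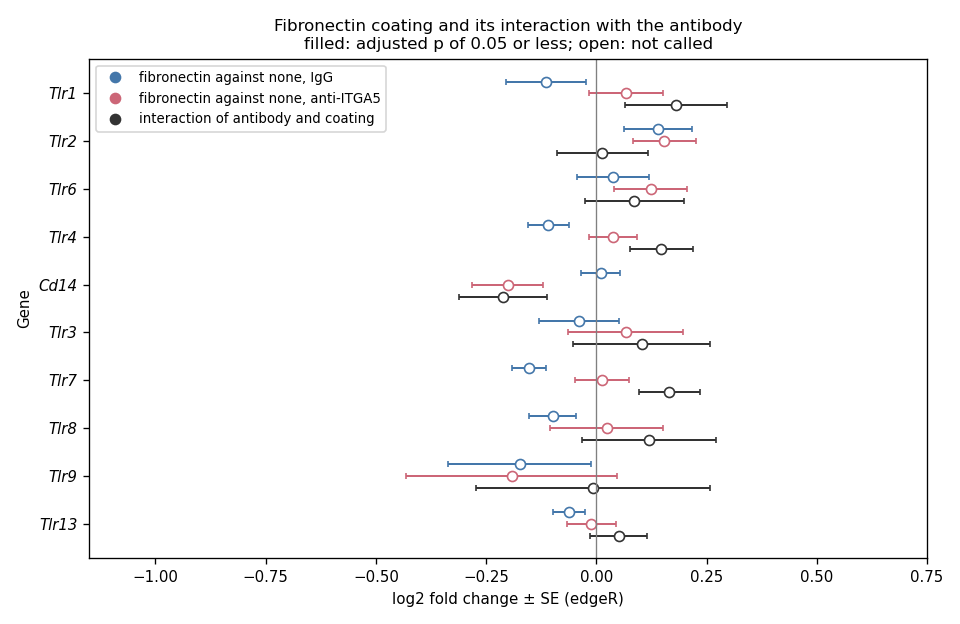
Log2 scale (x axis, edgeR) with SE for the 10 genes (y axis): fibronectin against none under each antibody, and the interaction. All points are open, and they lie between -0.21 and 0.18.

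The genes most like Cd14 over the 12 libraries, by the root mean square difference of centred log2 CPM among 3290 genes that varied at least as much, were Ifi27, Cirbp and Hmgb1 (0.0731, 0.0761 and 0.0932). For Tlr2 they were Tuba1b, Odc1 and Amdhd2 (0.0739, 0.0801 and 0.0833, among 2747 genes) and for Tlr4 Prkci, Prkacb and Ermp1 (0.0419, 0.0464 and 0.0475, among 10749). The first 2 sets rose under anti-ITGA5 on both coatings, as the choice by likeness entails, and the points share libraries, depth and groups. This is a description of patterns, with no test.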

How the data were processed

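The 12 mouse macrophage RNA-seq libraries, 3 per group, were used as labelled. The authors made oligo(dT)-selected libraries, aligned paired reads with TopHat2 2.0.9 to GRCm38.p6 and counted Ensembl genes with HTSeq 0.6.1, per their methods and the submitters' processing notes. The deposited counts are unnormalized. The authors deposited FPKM in a second table, scaled by gene length and library size. The strand setting and the annotation release are not given in the sources used here.

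Counts were tested with edgeR 4.0.16 in R 4.3.3: filterByExpr (minimum count 10, total 15), TMM, the quasi-likelihood test, and Benjamini-Hochberg adjustment over all genes tested. Each comparison used its own 6 libraries and the interaction all 12. The SE is the log2 fold change divided by the square root of F. Intervals are 1.96 SE on each side. FPKM were compared by 2-sided exact permutation. DESeq2 1.42.0, limma 3.58.1 on log2(FPKM + 1 or + 0.1), other scalings and filters, a replicate block and leaving out each library were alternatives. Scripts were tested on simulated data.

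The members and gene lists were chosen with earlier results of these data known. Named were all members, Tlr5, Tlr11, Tlr12, Ly96, Unc93b1 and Myd88, up to 3 genes of each list with the largest mean absolute change among those called, and the 3 genes most like Cd14, Tlr2 and Tlr4 (at least 10 counts in every library, prior count 2). Other genes of the lists and Itga5 were named after their values were seen. Tlr9 was the member with the fewest counts.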

Additional observations from a re-analysis of the deposited data

How the results depend on the processing

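The calls of Tlr2 on both coatings, of Tlr8 and Cd14 without fibronectin and of Tlr1 and Tlr13 with it stood under all alternatives and with any library left out. Members called lower without fibronectin numbered 4, and 1 where limma was run on FPKM of unfiltered genes; leaving out 1 library gave 1 to 4 (1 without IgG replicate 1, and 2 without IgG replicate 3 or anti-ITGA5 replicate 1 or 3). With fibronectin 5 were called higher with total-count scaling in place of 3, and 1 lower by that limma run in place of 3; leaving out 1 library gave 2 to 3 of each. The cause was not tested. Values not called changed sign in some settings. With 1 library left out, log2 fold changes without fibronectin ran from -0.00080 to 0.13 for Dusp1, and those with fibronectin from -0.20 to 0.016 for Tlr3, -1.64 to 0.055 for Irf7, -1.94 to 0.77 for Ccl5, -1.19 to 0.20 for Zbp1, -0.34 to 0.017 for Ifih1 and -0.34 to 0.16 for Dhx58. Ccl5 with fibronectin was 0.25, and -0.067 with the replicate block, -0.12 and -0.59 with limma at pseudocounts of 1 and 0.1, and -0.12 with no filter. Dhx58 was -0.0026 where each library needed 10 counts of a gene, -0.035 with the block, -0.040 and -0.049 with limma at both pseudocounts, and -0.040 with no filter.

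The labels number replicates 1 to 3 in each group, but same-numbered libraries deviated together with r of -0.02 to 0.15 and not above 0.1 in every pair, so the numbers were not taken to pair them; in 3 of 4 comparisons each library correlated best with its own number, a hint from the data. With the replicate block, 1 member, Tlr7, was called lower by fibronectin in IgG (-0.15, adjusted p = 0.009 in edgeR), and over all genes the calls there went from 42 higher and 16 lower to 283 and 133, from 1419 and 1265 to 1547 and 1421 for the antibody without fibronectin and from 1866 and 1699 to 2321 and 2217 with it. By DESeq2 81 and 29 genes were called for fibronectin in IgG. Without 1 library, genes called for the antibody without fibronectin numbered 846 to 1992 higher and 627 to 1842 lower, falling by over 1.5 times for higher without IgG replicate 1 or 3 (846 and 893) and for lower without IgG replicate 1, 2 or 3 or anti-ITGA5 replicate 1 (627, 786, 674 and 754). With fibronectin they numbered 1323 to 2065 and 1113 to 1907 (1113 without anti-ITGA5 replicate 1), and for fibronectin in IgG 6 to 77 and 3 to 24. Limma without a filter called 684 and 536 without and 1025 and 846 with fibronectin. That run also lost the calls without fibronectin of Ctss (adjusted p = 0.157), Ctsl (0.0873), Peli2 (0.0803), Irf5 (0.0939), Ccl3 (0.117), Ccl5 (0.065), Ifih1 (0.0533) and Dhx58 (0.101), and with fibronectin of Peli2 (0.0744), Irf8 (0.0547) and Tollip (0.0791). With all 12 libraries in 1 fit Ifih1 (0.0926) and Dhx58 (0.165) without fibronectin were not called, and with the replicate block Irf7 with fibronectin was (-0.63, 0.0134).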
